A study of Mus musculus with 8 samples.

Results

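The proglucagon gene and 7 genes for the enzymes and helper proteins that mature peptide hormones were followed in aTC1-6 cells given a Yy1 plasmid or an empty plasmid. The 8 genes were Gcg, Pcsk1, Pcsk2, Pcsk1n, Scg5, Cpe, Pam and Furin, taken by symbol from the 75078 Ensembl genes of the count table. Each symbol matched 1 gene, and all 8 passed the filter on low counts that left 15916 tested genes. None of the 8 was called different between the plasmids. Per length of transcript, the cells carried 2564 times as much Pcsk2 as Pcsk1 with the Yy1 plasmid and 2895 times as much with the empty plasmid (geometric means over 4 libraries each, with the longest coding transcript as length). With the median transcript length these were 1400 times with the Yy1 plasmid and 1581 times with the empty plasmid. Pcsk1n varied from library to library far more than the other well-expressed members.

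The aTC1-6 line is a mouse pancreatic alpha cell line, cloned from a tumour of mice in which the proglucagon promoter drove a viral oncogene. All libraries came from this line, so each result describes a single clone. Both groups were seeded and transfected 24 h later in DMEM labelled 11 mM. The Yy1 plasmid group (samples 45, 46, 47 and 48) received a plasmid that overexpresses the zinc finger transcription factor Yy1, and the empty plasmid group (samples 31, 32, 33 and 34) received a stuffer plasmid without it. The labels do not give the plasmid's promoter, the share of cells that took it up or the time of harvest, nor do they say whether the samples were separate cultures. The p-values therefore rest on the variation among these samples alone, and that variation may be technical. In RNA from whole wells, fewer expressing cells and less RNA per cell cannot be told apart.

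Alpha cells make glucagon by cutting it out of a larger precursor, proglucagon, inside secretory granules. Convertases cut after pairs of basic residues, carboxypeptidase E trims the basic residues left at the new end, and in some peptides a terminal glycine is turned into an amide. The convertase decides the product. The enzyme encoded by Pcsk2 releases glucagon, whereas that encoded by Pcsk1, which prevails in intestinal L cells, releases the glucagon-like peptides.

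Candidate pairs of basic residues are shown in the Gcg message itself, because convertases cut at such pairs. The coding sequence has 180 codons and 7 pairs of adjacent codons for lysine or arginine. The stretch below holds codons 51 to 130 of the GENCODE transcript Gcg-201, read 5′ to 3′ over a pair of exons on the minus strand of GRCm38, between chr2:62476826-62478658. Capitals mark pairs only, so single lysine or arginine codons are not marked. The pair at codons 51 and 52 precedes glucagon and the pair at codons 82 and 83 follows it. The pair at codons 69 and 70 lies inside glucagon. The stretch between the pairs at codons 90 and 91 and at codons 129 and 130 holds glucagon-like peptide 1. Glucagon-like peptide 2 lies beyond the stretch shown, between the pairs at codons 144 and 145 and at codons 179 and 180.
Gcg coding stretch: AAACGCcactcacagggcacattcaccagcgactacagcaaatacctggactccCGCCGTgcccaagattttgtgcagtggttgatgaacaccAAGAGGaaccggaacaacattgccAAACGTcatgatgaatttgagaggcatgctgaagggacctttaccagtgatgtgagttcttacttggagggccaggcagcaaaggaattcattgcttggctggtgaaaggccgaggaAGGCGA

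The upstream sequences of the highest and the lowest member, Gcg and Pcsk1, are shown because the plasmid encodes a factor that binds promoters. They cover the 250 bases before the transcript start in RefSeq's GRCm38.p6 table. Gcg lies at chr2:62483654-62483903 on the minus strand and Pcsk1 at chr13:75089607-75089856 on the plus strand. Capitals mark a TATA box, TATAAA, in Gcg, 24 to 19 bases before the start, and a cAMP response element, TGACGTCA, in Pcsk1, 78 to 71 bases before the start.
Gcg upstream: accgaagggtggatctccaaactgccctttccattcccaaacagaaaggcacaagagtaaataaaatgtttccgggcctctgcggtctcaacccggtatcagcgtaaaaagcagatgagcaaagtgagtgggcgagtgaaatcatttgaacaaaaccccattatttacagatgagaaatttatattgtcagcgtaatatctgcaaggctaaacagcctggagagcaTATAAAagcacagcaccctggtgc
Pcsk1 upstream: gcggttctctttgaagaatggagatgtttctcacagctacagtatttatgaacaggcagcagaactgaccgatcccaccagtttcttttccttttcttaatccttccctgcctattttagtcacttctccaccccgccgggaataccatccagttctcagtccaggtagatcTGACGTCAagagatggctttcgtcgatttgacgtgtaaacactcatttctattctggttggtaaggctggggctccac

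The table held 9 promoters of 7 members (Gcg, Pcsk1, Pcsk2, Pcsk1n, Scg5, Pam and Furin). Over these windows a core motif of YY1, CCATNTT on either strand, matched 0 of the 9, while it matched 12.4% of the 32851 promoters in the table. TGACGTCA, which reads the same on both strands, was found in 1 of the 9 and in 1.55% of all promoters. TATAAA on either strand was found in 2 of the 9 (Gcg and Furin) and in 12.4% of all promoters, and Gcg held a further match on the opposite strand at 72 to 67 bases before the start. None of these motifs overlapped another in the members' windows. A match or its absence describes only these letters in these windows.

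Libraries held 20679804 (empty plasmid 33) to 33347445 (Yy1 plasmid 47) estimated counts. Of the 15916 tested genes, 82 were called by edgeR's quasi-likelihood test at a Benjamini-Hochberg adjusted p under 0.05, or 0.515%. Yy1 itself, the check of the labels, had 192259, 142992, 170099 and 162719 counts with the Yy1 plasmid, against 5441, 4464, 3565 and 5053 counts with the empty plasmid, or 5233 ± 464 CPM with the Yy1 plasmid and 175 ± 5.33 CPM with the empty plasmid (SD, n = 4 each). CPM are counts scaled to library sizes adjusted by TMM, and the Yy1 count cannot separate plasmid from cellular transcript. The alpha cell label was checked with 10 marker genes. Of these, 9 were tested and 0 were called, with summed levels of 3083 to 3172 CPM with the Yy1 plasmid and 3091 to 3186 CPM with the empty plasmid, while Gc was listed at 0 in all 8 libraries. Among markers of other islet cells, Ins1, Ins2, Ucn3 and Ppy were also at 0 throughout. Rbp4, a retinol carrier on the list of delta, PP and epsilon cell markers, was high, at 1737 ± 66.2 CPM with the Yy1 plasmid and 1685 ± 131 CPM with the empty plasmid (SD, n = 4 each). The 6 markers of gut endocrine cells, some of which express proglucagon, summed to 0.606 to 0.797 CPM with the Yy1 plasmid and 0.251 to 0.931 CPM with the empty plasmid.

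Per length of transcript, the substrate stood far above its processing enzymes. Levels were set per kb of the longest protein-coding transcript in GENCODE, since longer transcripts yield more reads. Gcg averaged 19569 ± 342 CPM per kb with the Yy1 plasmid and 19511 ± 502 CPM per kb with the empty plasmid (SD, n = 4 each), the highest of 21665 genes with a length. Pcsk2, the glucagon-releasing convertase, came next among the members at 612 ± 11.4 CPM per kb with the Yy1 plasmid and 597 ± 7.97 CPM per kb with the empty plasmid (SD, n = 4 each). This was rank 42 among those genes, and Gcg was 32.3-fold above it over all libraries. Pam, which encodes the amidating enzyme, followed at 426 ± 0.969 CPM per kb with the Yy1 plasmid and 425 ± 7.26 CPM per kb with the empty plasmid (SD, n = 4 each).

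Cpe, the granule carboxypeptidase, and Scg5, which encodes a chaperone that the Pcsk2 enzyme needs to become active, were close behind. Cpe averaged 325 ± 8.25 CPM per kb with the Yy1 plasmid and 317 ± 8.13 CPM per kb with the empty plasmid (SD, n = 4 each). Scg5 averaged 257 ± 9.04 CPM per kb with the Yy1 plasmid and 261 ± 14.8 CPM per kb with the empty plasmid (SD, n = 4 each). The last 3 places went to Pcsk1n, whose product proSAAS inhibits the Pcsk1 enzyme, to Furin, the convertase of the trans-Golgi that serves most cells, and to Pcsk1. Pcsk1n averaged 56.7 ± 17.0 CPM per kb with the Yy1 plasmid and 68.8 ± 14.4 CPM per kb with the empty plasmid (SD, n = 4 each). Furin averaged 13.4 ± 0.251 CPM per kb with the Yy1 plasmid and 13.8 ± 0.715 CPM per kb with the empty plasmid (SD, n = 4 each). Pcsk1 averaged 0.251 ± 0.0875 CPM per kb with the Yy1 plasmid and 0.213 ± 0.0619 CPM per kb with the empty plasmid (SD, n = 4 each). No 2 neighbours in this order overlapped in any of the 8 libraries. With the median transcript length in place of the longest, Pam and Pcsk2 changed places, at 804 and 604 CPM per kb over all libraries.

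**Figure D1:**
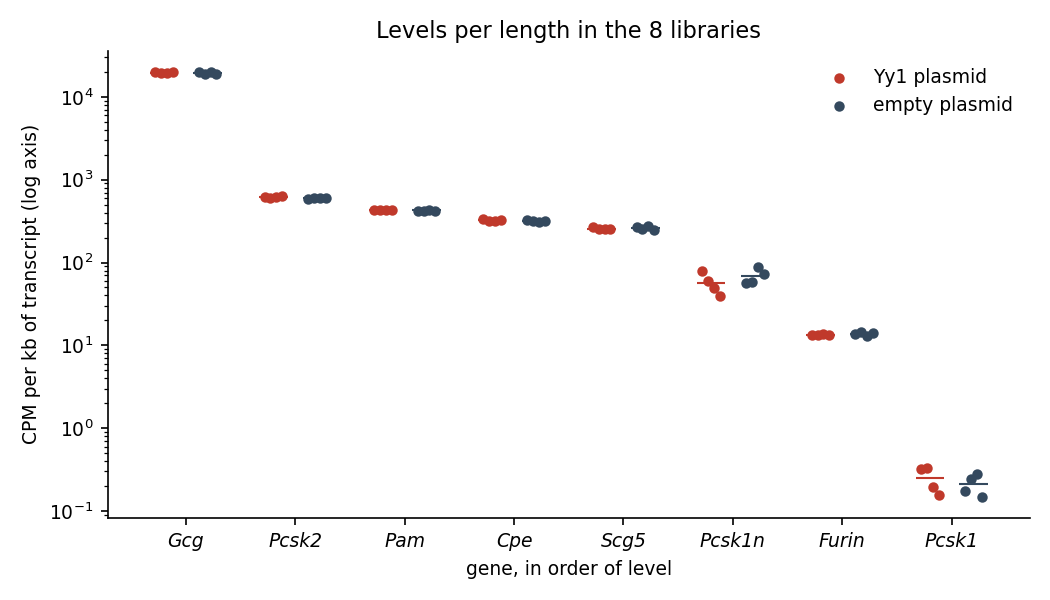
Levels of the 8 genes in CPM per kb of transcript (log axis) in the 4 Yy1 plasmid libraries (red, left of each pair) and the 4 empty plasmid libraries (dark, right), with points for libraries and lines for group means. Gcg lies near 19540 CPM per kb in both groups, and Pcsk1 reaches 0.327 CPM per kb in its highest library.

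Gcg varied little between libraries. It stood at 21721, 21088, 20891 and 21465 CPM in the Yy1 plasmid libraries, against 21720, 20795, 21682 and 20717 CPM in the empty plasmid libraries. The groups overlapped almost fully, and the highest library was 1.05 times the lowest. The 95% interval of the fitted difference ran from -5.96% to 6.97%, Yy1 plasmid relative to empty plasmid (edgeR, log2 fold change 0.0043, SE 0.0448, adjusted p = 0.997). The message made up 2.12 ± 0.0388% of all counts with the Yy1 plasmid and 2.12 ± 0.0533% with the empty plasmid (SD, n = 4 each). The 8 members together made up 2.70 ± 0.0453% of all counts with the Yy1 plasmid and 2.70 ± 0.0563% with the empty plasmid (SD, n = 4 each), and Gcg was between 78.3% and 79.1% of that.

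The convertases differed widely in level and in how precisely they were measured. Pcsk2 had 2881, 2832, 2879 and 2961 CPM with the Yy1 plasmid, against 2783, 2818, 2870 and 2800 CPM with the empty plasmid. All 4 Yy1 plasmid libraries lay above 3 of the 4 empty plasmid libraries, and empty plasmid 33 lay among them. For Pcsk2 the log2 fold change was 0.04 ± 0.0400 (SE, edgeR adjusted p = 0.993), with a 95% interval from -3.21% to 8.56%. Pcsk1 gave only 53, 49, 33 and 25 counts with the Yy1 plasmid, against 27, 33, 29 and 21 counts with the empty plasmid. On the CPM scale these were 1.63, 1.65, 0.993 and 0.784 with the Yy1 plasmid, against 0.876, 1.24, 1.42 and 0.752 with the empty plasmid. The groups overlapped, and 19.1% of tested genes had a lower mean CPM. The log2 fold change of Pcsk1 was 0.25 ± 0.276 (SE, edgeR adjusted p = 0.993), and its 95% interval from -19.8% to 77.2% does not exclude sizeable changes. Leaving out single libraries moved it between 0.10 (without Yy1 plasmid 46) and 0.42 (without Yy1 plasmid 48). Counting error alone gives Pcsk1 a coefficient of variation of 18.0%, against 34.9% seen among the Yy1 plasmid libraries and 29.1% among the empty plasmid libraries. Furin had 57.1, 58.1, 59.4 and 57.2 CPM with the Yy1 plasmid, against 60.1, 62.6, 55.5 and 61.4 CPM with the empty plasmid. Of the empty plasmid libraries, 3 lay above every Yy1 plasmid library and number 33 lay below them all. The log2 fold change of Furin was -0.05 ± 0.0450 (SE, edgeR adjusted p = 0.986), with a 95% interval from -9.47% to 3.03%.

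The helper proteins of the convertases behaved differently from each other. Scg5 had 326, 305, 303 and 306 CPM with the Yy1 plasmid, against 328, 305, 333 and 296 CPM with the empty plasmid. The groups overlapped, with a log2 fold change at -0.02 ± 0.0434 (SE, edgeR adjusted p = 0.997) and a 95% interval from -7.65% to 4.63%. Pcsk1n had 172, 133, 107 and 85.9 CPM with the Yy1 plasmid, against 125, 128, 193 and 158 CPM with the empty plasmid. The highest library of Pcsk1n, empty plasmid 33, was 2.25 times the lowest, Yy1 plasmid 48, and the groups overlapped between 125 and 172 CPM. For Pcsk1n the log2 fold change was -0.28 ± 0.257 (SE, edgeR adjusted p = 0.992), with a 95% interval from -46.4% to 27.3%. It moved to -0.48 without Yy1 plasmid 45, to -0.14 without Yy1 plasmid 48 and to -0.14 without empty plasmid 33. These libraries held between 2738 and 5618 Pcsk1n counts, so counting error gives a coefficient of variation of only 1.63%, against 30.0% seen among the Yy1 plasmid libraries and 20.96% among the empty plasmid libraries.

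**Figure D2:**
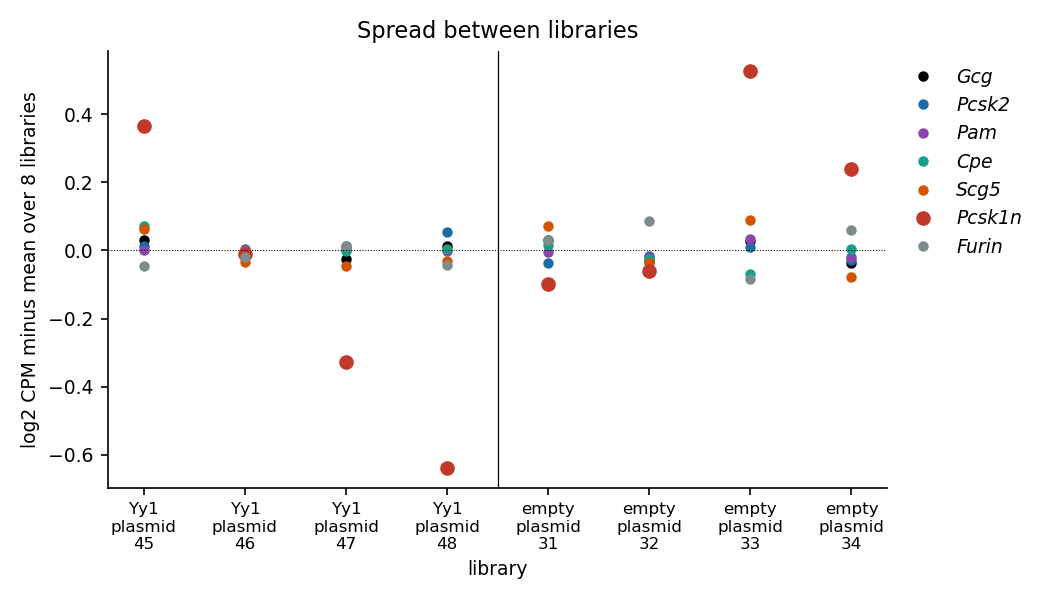
Deviation of each library's log2 CPM from the gene's mean over the 8 libraries for 7 members, with Yy1 plasmid libraries to the left of the line and empty plasmid libraries to the right (Pcsk1, which has few counts, is left out). Pcsk1n (large red points) runs from 85.9 CPM in Yy1 plasmid 48 to 193 CPM in empty plasmid 33, while Gcg, Pcsk2, Pam, Cpe, Scg5 and Furin stay near 0.

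The enzymes that finish the peptides after cutting were measured with high precision. Cpe had 714, 678, 678 and 681 CPM with the Yy1 plasmid, against 686, 667, 647 and 680 CPM with the empty plasmid. Yy1 plasmid 45 was the highest library and empty plasmid 33 the lowest, and the groups overlapped. For Cpe the log2 fold change was 0.04 ± 0.0389 (SE, edgeR adjusted p = 0.993), with a 95% interval from -2.98% to 8.48%. Pam, which makes the amide of peptides such as amidated glucagon-like peptide, had 1746, 1749, 1750.4 and 1741 CPM with the Yy1 plasmid, against 1740.4, 1723, 1786 and 1723 CPM with the empty plasmid. The Yy1 plasmid libraries fell inside the range of the empty plasmid libraries. For Pam the log2 fold change was 0.0031 ± 0.0387 (SE, edgeR adjusted p = 0.997), with a 95% interval from -5.20% to 5.94%.

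Across the 8 members, 0 were called at an adjusted p under 0.05 and 0 had an unadjusted p under 0.05, against 0.515% and 5.42% of all tested genes. DESeq2 and limma-voom also called 0 of the 8. The libraries of the groups overlapped for all 8 members, while for 3.95% of tested genes they did not. The members' log2 fold changes ran from -0.28 to 0.25 with a median of 0.0037, against a median of -0.0025 over all tested genes.

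**Figure D3:**
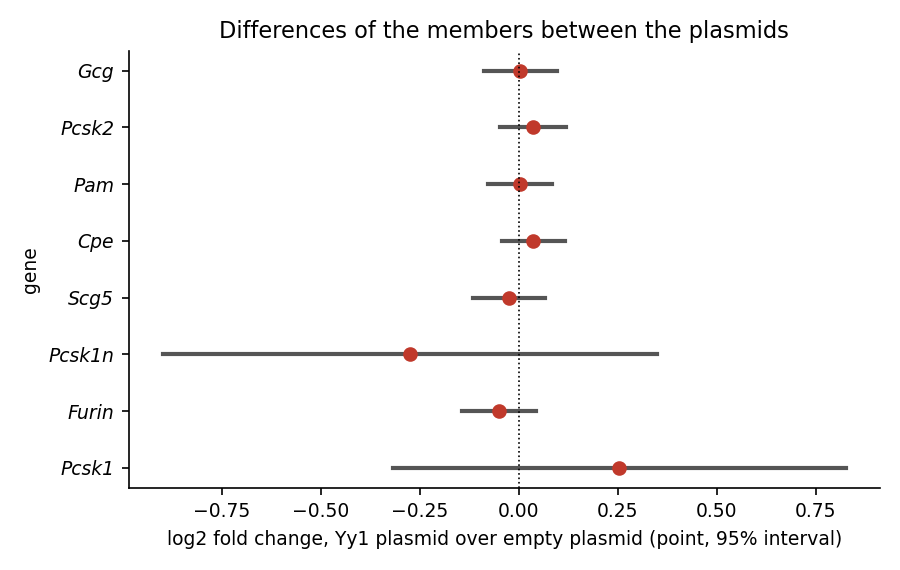
Log2 fold change of each member, Yy1 plasmid over empty plasmid (points), with the 95% interval of edgeR's fit (bars), ordered by level per length. All 8 intervals include 0, and those of Pcsk1n and Pcsk1 are the widest.

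Ratios within a library show the balance between enzymes and do not depend on how libraries are scaled. The ratio of Pcsk2 counts to Pcsk1 counts was 1772, 1716, 2900 and 3777 with the Yy1 plasmid, against 3175, 2269, 2019 and 3725 with the empty plasmid. The range of the empty plasmid libraries lay inside that of the Yy1 plasmid libraries. The mean log2 ratio was 11.2 ± 0.556 with the Yy1 plasmid and 11.4 ± 0.412 with the empty plasmid (SD, n = 4 each; difference -0.18, SE 0.346, two-sided exact permutation p = 0.629). Leaving out single libraries moved this difference between -0.39 (without Yy1 plasmid 48) and -0.0136 (without Yy1 plasmid 46). Per kb of the longest transcript the geometric mean ratio was 2564 with the Yy1 plasmid and 2895 with the empty plasmid, and per kb of the median length it was 1400 with the Yy1 plasmid and 1581 with the empty plasmid. Of the summed counts of both genes, Pcsk1 made up 0.0434% with the Yy1 plasmid (95% exact Clopper-Pearson interval 0.0370% to 0.0507%) and 0.0370% with the empty plasmid (0.0304% to 0.0446%), intervals that cover counting error only.

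A further 8 ratios were compared, and none of the 9 passed an exact permutation test, with raw two-sided p from 0.114 to 0.971 and Benjamini-Hochberg adjusted p over the 9 ratios of at least 0.557. The smallest p that 4 against 4 libraries allow is 2 in 70. Relative to its substrate, Pcsk2 stood at 0.133 to 0.138 counts per Gcg count with the Yy1 plasmid and 0.128 to 0.136 with the empty plasmid (difference of log2 ratios 0.03, SE 0.0234, exact permutation p = 0.286). Cpe stood at 0.0317 to 0.0329 counts per Gcg count with the Yy1 plasmid and 0.0299 to 0.0328 with the empty plasmid, and Pam at 0.0804 to 0.0838 with the Yy1 plasmid and 0.0801 to 0.0831 with the empty plasmid. The groups overlapped in both of these ratios of trimming and amidating enzyme to proglucagon. The chaperone ratio, Scg5 counts per Pcsk2 count, was 0.103 to 0.113 with the Yy1 plasmid and 0.106 to 0.118 with the empty plasmid (difference of log2 ratios -0.06, SE 0.0479, exact permutation p = 0.2).

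In the 2 ratios with the smallest p, a single library kept the groups from separating. Pcsk1n counts per Pcsk1 count, inhibitor against enzyme, were 106, 80.5, 107 and 110 with the Yy1 plasmid, against 142, 103, 136 and 210 with the empty plasmid (difference of log2 ratios -0.52, SE 0.236, exact permutation p = 0.114). Empty plasmid 32 lay among the Yy1 plasmid libraries. Furin counts per Pcsk2 count were 0.0198, 0.0205, 0.0206 and 0.0193 with the Yy1 plasmid, against 0.0216, 0.0222, 0.0193 and 0.0219 with the empty plasmid (difference of log2 ratios -0.08, SE 0.0510, exact permutation p = 0.143). Empty plasmid 33 lay near the lowest Yy1 plasmid library. In each ratio this was the only empty plasmid library inside the range of the Yy1 plasmid libraries. Leaving it out separates the groups by construction and gives an exact permutation p of 0.0286, which is the floor for 3 against 4 libraries, so it is no support for a difference.

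**Figure D4:**
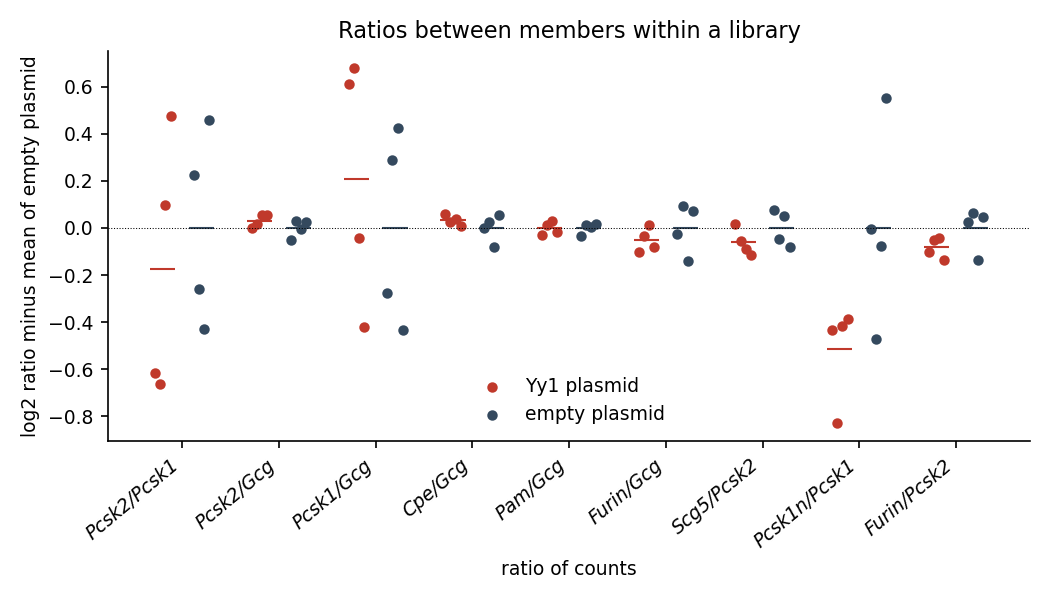
Log2 ratios of counts between members within each library, less the mean of the empty plasmid libraries, for Yy1 plasmid (red, left) and empty plasmid (dark, right), with lines for group means. The groups overlap in all 9 ratios, and the ratios with Pcsk1 spread most.

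Other genes of peptide maturation gave the same count of calls. Of a list of 38, 35 were tested and 0 were called, against 0.515% of tested genes. An unadjusted p under 0.05 was found for 4 of the 35, all higher with the Yy1 plasmid, against 3.23% of tested genes in that direction. The libraries did not overlap for 3 of the 35 (Qpct, Cpn1 and Ctsb), against 3.95% of tested genes. The median log2 fold change of the list was 0.018, against -0.0025 over all tested genes.

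The log2 fold change furthest from 0 was that of Qpct, a glutaminyl cyclase that caps peptides with pyroglutamate, which had 16, 16, 17 and 30 counts with the Yy1 plasmid, against 5, 4, 6 and 5 counts with the empty plasmid. Every Yy1 plasmid library lay above every empty plasmid library, at 0.620 ± 0.215 CPM with the Yy1 plasmid and 0.197 ± 0.0661 CPM with the empty plasmid (SD, n = 4 each). The log2 fold change was 1.68 ± 0.402 (SE, edgeR adjusted p = 0.0652), which missed the threshold and, among the settings tried, passed it only with no filter on low counts (adjusted p = 0.0445). Ctsb, a lysosomal cysteine protease, showed a log2 fold change at 0.09 ± 0.0380 (SE, edgeR adjusted p = 0.731). Ctsl, the highest of its group by CPM and a cysteine protease that also cuts prohormones, averaged 301 ± 5.47 CPM with the Yy1 plasmid and 285 ± 9.61 CPM with the empty plasmid (SD, n = 4 each; log2 fold change 0.08, edgeR adjusted p = 0.909).

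Other convertases and carboxypeptidases also gave 0 calls. Of 6 further convertases, 5 were tested, and Pcsk5 gave 3 counts in empty plasmid 31 and 0 in the other libraries, each of which allows at most 3 counts. Pcsk6, a convertase of the secretory pathway, was low, at 1.13 ± 0.238 CPM with the Yy1 plasmid and 0.949 ± 0.276 CPM with the empty plasmid (SD, n = 4 each; log2 fold change 0.25, edgeR adjusted p = 0.993). Of 7 further carboxypeptidases of the family, 5 were tested. Cpn1, the catalytic subunit of carboxypeptidase N, had 36.4, 38.3, 38.6 and 39.8 CPM with the Yy1 plasmid, against 31.0, 36.4, 36.0 and 35.9 CPM with the empty plasmid. Yy1 plasmid 45 and empty plasmid 32 nearly met, but the groups did not overlap, with a log2 fold change at 0.14 ± 0.0559 (SE, edgeR adjusted p = 0.714). Without empty plasmid 31, its lowest library, the value was 0.08 (edgeR adjusted p = 0.938). Cpd, a carboxypeptidase of the trans-Golgi with the highest CPM of these, showed a log2 fold change of 0.0078 (SE 0.0548), and Aebp1, a secreted relative of these enzymes, had 0.18 (SE 0.154), with edgeR adjusted p of 0.997 and 0.980.

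The granins, acidic proteins that pack hormones into granules, had 0 calls among 5 genes. Chga averaged 2905 ± 36.5 CPM with the Yy1 plasmid and 2887 ± 221 CPM with the empty plasmid (SD, n = 4 each; log2 fold change 0.0094, edgeR adjusted p = 0.997). Chgb had 1018, 965, 992 and 969 CPM with the Yy1 plasmid, against 1032, 876, 1340 and 936 CPM with the empty plasmid. Its highest library was empty plasmid 33, in which Pcsk1n and Scg5 were also highest, and without that library the log2 fold change of -0.08 became 0.06, with an edgeR adjusted p of 0.877. The same library was highest for Chga at 3208 CPM and for Scg2 and Scg3, further granins named after their values were seen. Scg2 had 2401, 2566, 2393 and 2572 CPM with the Yy1 plasmid, against 2422, 2356, 2840.4 and 2366 CPM with the empty plasmid. Scg3 had 152, 166, 160.1 and 170.3 CPM with the Yy1 plasmid, against 157, 157, 185 and 157 CPM with the empty plasmid. Empty plasmid 33 was thus the highest library for 4 of the 5 granins, and without it the log2 fold changes of -0.0075 for Scg2 and -0.016 for Scg3 became 0.06 and 0.04. Leaving it out moved the log2 fold changes of Pcsk1n and Scg5 to -0.14 and 0.0011. Empty plasmid 33 also had the smallest total of the 8 libraries, 20679804 estimated counts, against 26512862 in the next, empty plasmid 32. Any part of depth in the levels of that library was not tested. Vgf, a granin-like neuropeptide precursor and the remaining gene of the 5, was instead lowest in empty plasmid 33, at 233 CPM. Cpe and Furin were also lowest in that library, at 647 and 55.5 CPM. For Vgf the log2 fold change was 0.02 ± 0.0454 (SE, edgeR adjusted p = 0.997).

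Signal peptidase, which removes the leader from preproglucagon, and the proton pump that acidifies granules were measured in 5 and 7 genes. None of the 12 had an unadjusted p under 0.05. The pump's 7 log2 fold changes ran from 0.0037 to 0.06 and the 5 of signal peptidase from -0.04 to 0.05. Atp6v0a1 and Atp6v1a, pump subunits, had 0.06 (SE 0.0427) and 0.04 (SE 0.0394), and Sec11a and Sec11c, the catalytic subunits of signal peptidase, had 0.05 (SE 0.0489) and -0.04 (SE 0.0535). Atp6v1b2 and Spcs3, which had the highest CPM of the pump and of the peptidase, had 0.0037 and 0.02.

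**Figure D5:**
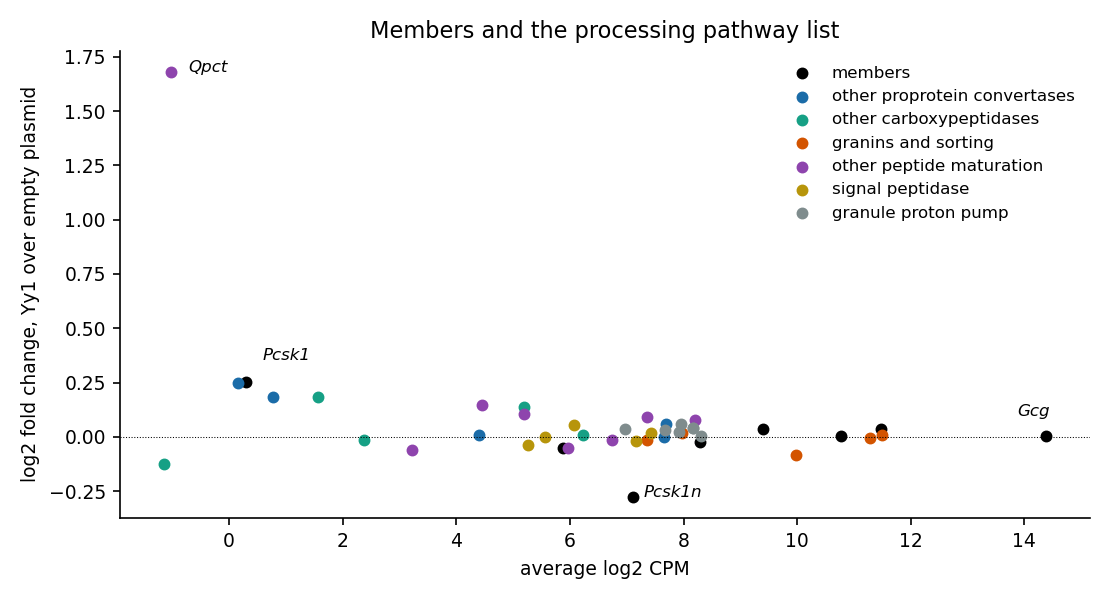
Log2 fold change, Yy1 plasmid over empty plasmid, against average log2 CPM for the 8 members (black) and the 35 tested genes of the processing pathway list (colours by group). Qpct stands at 1.68 at a low level, and all other points lie between -0.28 and 0.25.

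The members differed in length and base composition. Furin (58.3% GC) and Pcsk1n (57.3% GC) had the most GC-rich transcripts and Pcsk1 the least (40.6% GC), against a median of 49.1% over 6163 well-expressed genes. The part of base composition in the spread of Pcsk1n was not tested.

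Genes that followed the members most closely over the 8 libraries, after each group's mean was subtracted, were sought among 6202 or 6203 genes with an average log2 CPM of at least 5. Nearest to Gcg were Spout1 (Pearson r = 0.976), Prpf38a (r = 0.966) and Cmas (r = 0.959). Nearest to Scg5 were Prpf38a (r = 0.982), Lamtor2 (r = 0.979) and Tmem183a (r = 0.978), so Prpf38a, a splicing factor gene, stood on both lists. Nearest to Pcsk2 were Pcdhgc3 (r = 0.930), Babam1 (r = 0.929) and Ubap2l (r = 0.924), and without the 2 libraries farthest from the median of Pcsk2 these fell to 0.770, 0.507 and 0.638. Nearest to Pcsk1 were B3gnt9 (r = 0.957), Tmem185b (r = 0.929) and Klhl13 (r = 0.923). Spearman's rho of these 12 pairs ran from 0.738 to 1. Without the 2 libraries farthest from the member's median, r of the 9 pairs with Gcg, Pcsk1 and Scg5 ran from 0.836 to 0.962. Being the highest of 6202 or 6203 values over the same 8 libraries, they are given as a description only.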

How the data were processed

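Poly(A) RNA of 8 samples was extracted with Trizol and columns and made into directional libraries, per the labels' protocols. Per the submitters' processing notes, the tools were fastp and kallisto and the build GRCm39, while versions and the summing of transcripts to genes are not given in the sources used here. The deposited expected counts, unscaled and partly fractional, were rounded for tests. Every column was tied to a sample, and 0 were left over. Symbols came from GENCODE release 21 for mouse, built on GRCm38 (48278 of 75078 IDs).

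Counts passed filterByExpr (minimum 10, total 15), were TMM-scaled and went into edgeR 4.0.16 in R 4.3.3 (quasi-likelihood, robust, two-sided, Benjamini-Hochberg over 15916 genes, threshold 0.05). The common biological coefficient of variation was 0.0567. Standard errors are the log2 fold change over the square root of F. CPM use TMM-scaled totals of tested genes. Log2 CPM for gene likeness used a prior count of 2. Ratios were tested by exact permutation over 70 arrangements. Alternatives used DESeq2 1.42.0, limma 3.58.1 (voom), other scalings and filters, and each library left out. The fitting code was tested on simulated data. Replicate pairs differed by more than sampling noise (chi-square per degree of freedom 2.90 to 13.5). Where a library has 0 counts, up to 3 are possible by counting error, the only error these limits and the count intervals include. Transcript estimates of genes with close relatives or overlapping neighbours are uncertain.

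The members, lists and ratios were chosen with earlier results of these data known. Genes of the pathway list are named where they have the 2 smallest p or the highest level of their group. A gene that this rule names is not reported here. For genes most like a member, the 3 highest correlations were taken for Gcg, Pcsk2, Pcsk1 and Scg5, among genes with a symbol that do not start with Gm, AC or mt- or end in Rik.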

Additional observations from a re-analysis of the deposited data

Results flagged for a closer look

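Of 72 groups of 4 libraries examined, 8 held a library set apart from the other 3 by more than Dixon's 95% critical value for the gap over the range, where chance gives about 1 in 20. In Yy1 plasmid 45, Scg5 was high at 326 CPM and Cpe was high at 714 CPM. In Yy1 plasmid 47, Atp6v1b2 was low at 315 CPM. In Yy1 plasmid 48, Qpct was high at 0.941 CPM. The ratio of Pcsk1n to Pcsk1 counts was low in Yy1 plasmid 46, at 80.5. In empty plasmid 31, Cpn1 was low at 31.0 CPM. In empty plasmid 33, the granin genes Scg2 and Scg3, added after their values were seen, were high at 2840.4 CPM and 185 CPM.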

How the results depend on the processing

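No member was called under any of the 8 other settings or with any single library left out. The number of called genes, 82 as reported, was 174 with no filter and 54 when 1 CPM in 4 or more libraries was required, and 65 to 87 with single libraries left out. No filter gave 1 call in the pathway list, Qpct, whose adjusted p ran from 0.0445 to 0.114 over 7 other settings and from 0.0640 to 0.436 with single libraries left out. Upper-quartile scaling turned the log2 fold change of Scg2 to 0.00082. All other changes of sign came from leaving out single libraries, which gave log2 fold changes of -0.0076 to 0.0146 for Gcg, -0.0029 to 0.0149 for Pam and -0.0545 to 0.0011 for Scg5. Likewise they were -0.0423 to 0.0548 for Cpd, -0.0174 to 0.0638 for Chga, -0.161 to 0.0568 for Chgb, -0.0161 to 0.0488 for Vgf, -0.0347 to 0.0603 for Scg2, -0.0422 to 0.0444 for Scg3, -0.0121 to 0.0399 for Spcs3 and -0.0217 to 0.0162 for Atp6v1b2. Without a change of sign they were 0.101 to 0.423 for Pcsk1, -0.476 to -0.135 for Pcsk1n and 0.0828 to 0.162 for Cpn1. The difference of log2 ratios ran from -0.393 to -0.0136 for Pcsk2 to Pcsk1 (exact permutation p from 0.257 to 1), from -0.0131 to 0.0085 for Pam to Gcg, from -0.672 to -0.331 for Pcsk1n to Pcsk1 (exact permutation p from 0.0286 to 0.171) and from -0.128 to -0.0615 for Furin to Pcsk2 (exact permutation p from 0.0286 to 0.343), where 0.0286 is the smallest p that 3 against 4 libraries allow. The cause was not tested. With median lengths, chosen for the ratio after seeing the data, the order of levels kept 6 of 8 places and the per-kb ratio of Pcsk2 to Pcsk1 was 1400 with the Yy1 plasmid and 1581 with the empty plasmid. No paired analysis was possible because the groups share no sample numbers. Among the members, counting error is largest for Pcsk1, with 21 to 53 counts per library.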

Other observations

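Pcsk1n, the proSAAS gene, was among the least steady well-expressed genes, an observation made after its values were seen. The standard deviation of its log2 CPM within groups was 0.368, against a median of 0.0628 over 6203 genes with a symbol whose average log2 CPM was 5 or more, and 1 of those genes, Hist1h2ap, had a larger one (0.558). Hist1h2ap, a replication-dependent histone gene with near-identical copies and hence uncertain counts, had 150, 105, 69.9 and 65.6 CPM with the Yy1 plasmid, against 98.0, 75.4, 188 and 125 CPM with the empty plasmid. Like Pcsk1n, it was highest in empty plasmid 33 and lowest in Yy1 plasmid 48. The genes whose levels followed Pcsk1n most closely within groups were Jund (Pearson r = 0.969, Spearman rho = 0.976), Pcf11 (r = 0.963, rho = 0.929) and Rpl13 (r = 0.959, rho = 0.929), the highest of 6202 over 8 libraries and so a description only. Their longest coding transcripts had 67.1%, 42.7% and 57.1% GC. What sets the spread of Pcsk1n was not tested.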
